A study of Mus musculus with 3 samples.

Results

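The genes described here encode the beta subunits of the sodium pump (Atp1b1, Atp1b2 and Atp1b3) and 3 small membrane proteins of the FXYD family (Fxyd1, which encodes phospholemman, Fxyd5 and Fxyd6). They were taken by gene name from the deposited annotation, in which each of the 6 has a locus of its own, among 20117 loci that match a RefSeq protein-coding transcript (mRNA loci). All 6 were at 1 FPKM (fragments scaled to exon length in kilobases and to the mapped total of the library) or more in at least 1 library, as were 12569 mRNA loci in total. The libraries came from total RNA of the heart ventricle of C57BL/6 mice, for which the labels give no further allele or treatment, from embryos at E10.5 and E13.5 (days of embryonic development) and from adults at 8 weeks, with 1 library per stage. How many hearts went into each library is not given in the sources used here. Differences between stages thus have no replicate check, and p-values are not given.

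The sodium pump exchanges intracellular sodium for extracellular potassium and so sets the sodium gradient on which cardiac excitation and calcium extrusion depend. Its alpha subunit carries out transport, while the glycosylated beta subunit is needed for folding of the alpha subunit and its delivery to the plasma membrane. FXYD proteins cross the membrane once and associate with the pump. Phospholemman, the main FXYD protein of heart muscle, inhibits the pump until it is phosphorylated by protein kinases A and C.

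The reference promoters of 3 genes are shown, those of Fxyd1 and Fxyd5 for their differences and that of Atp1b1 for its level. Fxyd1 and Fxyd5 were higher in the adult than at E10.5 under each setting tried, by 2.08 to 2.52 and 1.78 to 2.20 on a log2 scale. Fxyd6 was higher under each setting as well, but by 0.21 to 0.63. Atp1b1 was the highest beta subunit gene in all 3 libraries. The windows are from RefSeq (GRCm38.p6), run from 250 bases before to 50 bases after an annotated start, and are written in the direction of transcription. Capitals mark matches on either strand to GGGCGG, to TATAA or to CCAAT, none of which overlap here. CANNTG was searched as well and is not marked.
Fxyd1, chr7:31054804-31055103, minus strand: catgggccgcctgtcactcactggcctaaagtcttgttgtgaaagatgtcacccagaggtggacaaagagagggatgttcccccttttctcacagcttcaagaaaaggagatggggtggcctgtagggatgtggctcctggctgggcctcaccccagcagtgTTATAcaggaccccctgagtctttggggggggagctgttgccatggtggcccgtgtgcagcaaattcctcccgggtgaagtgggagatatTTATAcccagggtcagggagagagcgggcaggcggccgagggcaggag
Fxyd5, chr7:31042282-31042581, minus strand: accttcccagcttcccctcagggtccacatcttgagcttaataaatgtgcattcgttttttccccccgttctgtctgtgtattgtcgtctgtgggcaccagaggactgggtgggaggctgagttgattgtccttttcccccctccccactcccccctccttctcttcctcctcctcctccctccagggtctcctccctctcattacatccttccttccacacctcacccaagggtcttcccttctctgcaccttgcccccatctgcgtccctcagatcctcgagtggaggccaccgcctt
Atp1b1, chr1:164458306-164458605, minus strand: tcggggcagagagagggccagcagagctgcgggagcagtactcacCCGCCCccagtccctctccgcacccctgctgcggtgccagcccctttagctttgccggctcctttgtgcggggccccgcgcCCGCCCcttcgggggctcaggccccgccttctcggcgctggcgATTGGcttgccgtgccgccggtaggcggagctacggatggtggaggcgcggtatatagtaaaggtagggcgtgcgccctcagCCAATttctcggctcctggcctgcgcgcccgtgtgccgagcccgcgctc
The Atp1b1 window had a G+C content of 71.0%, above that of 91.8% of the 32851 promoter windows of the reference, and held 2 matches to GGGCGG and 2 to CCAAT. In the Fxyd1 window the G+C content was 58.7%, and 2 matches to TATAA on the opposite strand began at bases 163 and 253 of the window. The Fxyd5 window had a G+C content of 57.3% and held none of the marked motifs and 1 match to CANNTG, which the other windows shown lacked. Of all windows, 35.7% held GGGCGG, 24.9% TATAA, 37.4% CCAAT and 72.3% CANNTG. These matches describe the letters of the windows only. The start used for the Fxyd1 and Atp1b1 windows is also a start in the deposited annotation, and that of Fxyd5 lies 9 bp from one. Reference windows were also found for Atp1b3 and Fxyd6. Those of Atp1b3, which was lower than Atp1b1 in each library, had G+C contents of 76.0% and 74.7%. They held 6 and 0 matches to GGGCGG, in that order. The Fxyd6 window had a G+C content of 54.3% and no match to GGGCGG.

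First, the levels of the beta subunit genes were compared. Atp1b1 (chromosome 1, 164437267 to 164458355), the predominant beta subunit gene of most tissues, was at 172 FPKM in the E10.5 library, 128 in the E13.5 library and 89.7 in the adult library, the order in which levels are given hereafter. Atp1b3 (chromosome 9, 96330687 to 96364321), another widely expressed beta subunit gene, was at 54.3, 55.0 and 25.3 FPKM. Atp1b2 (chromosome 11, 69599674 to 69605960), which also encodes an adhesion molecule of glial cells, was at 5.36, 1.91 and 2.32 FPKM. The order Atp1b1, Atp1b3, Atp1b2 was thus the same in all 3 libraries, and as deposited the adult level was the lowest of the 3 stages for Atp1b1 and Atp1b3. For Atp1b1 the direction from E13.5 to the adult was the opposite with 3 of 4 other scalings (0.04 to 0.33) and relative to loci of like length (0.14). From E10.5 to the adult the changes on the log2(FPKM + 1) scale were -0.93 for Atp1b1, -0.94 for Atp1b2 and -1.07 for Atp1b3. This scale compresses the low values of Atp1b2. As plain ratios of FPKM the falls were 1.92-fold for Atp1b1, 2.31-fold for Atp1b2 and 2.15-fold for Atp1b3.

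Next, the FXYD genes were examined. Fxyd1 (chromosome 7, 31051678 to 31055656) was at 99.2, 374 and 424 FPKM, which placed it 529th, 117th and 95th among the mRNA loci. Fxyd5 (chromosome 7, 31032723 to 31042322) encodes dysadherin, which is known from epithelial cells for its effects on cell adhesion. It was at 8.57, 16.4 and 31.8 FPKM, with its highest level in the adult. Fxyd6 (chromosome 9, 45370185 to 45396200), best known from the nervous system, was at 9.28, 19.7 and 10.9 FPKM, with its highest level at E13.5. Fxyd1 was the highest of the 3 FXYD genes at each stage, while Fxyd5 and Fxyd6 changed places, since Fxyd6 stood at 1.08, 1.20 and 0.342 times the Fxyd5 level. Between E10.5 and the adult the changes were 2.08 for Fxyd1, 1.78 for Fxyd5 and 0.21 for Fxyd6.

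**Figure D1:**
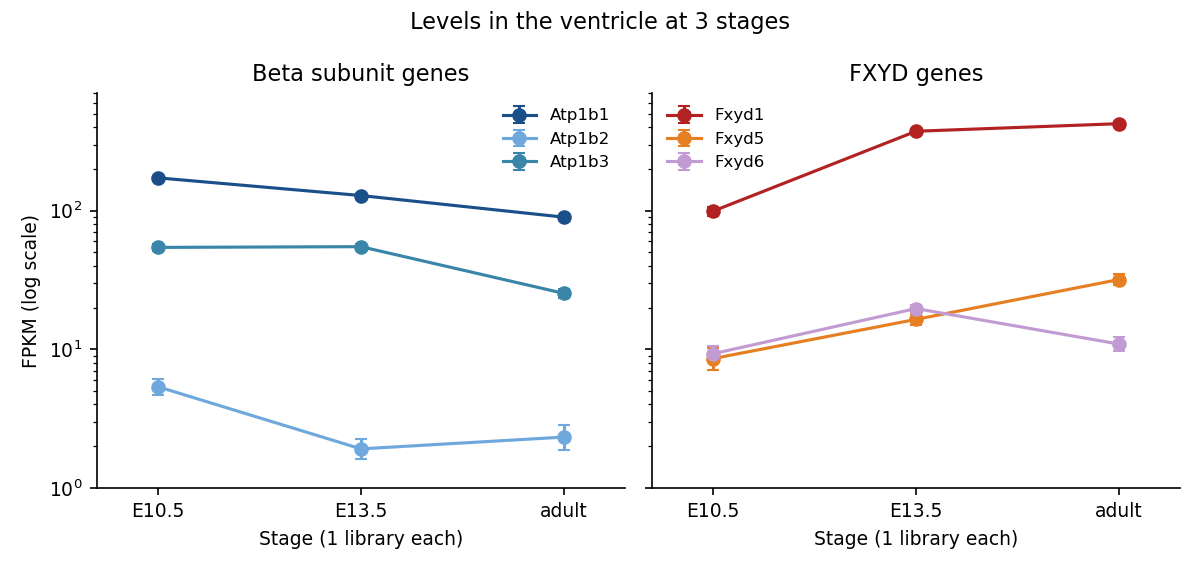
FPKM (log axis) of the beta subunit genes (left) and the FXYD genes (right) at 3 stages, 1 library each. Bars are approximate 95% Poisson intervals that cover counting error only. Fxyd1 lies at 99.2, 374 and 424 FPKM while Atp1b1 lies at 172, 128 and 89.7.

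Depth was approximated from the low values. Where a locus has a single unspliced transcript, the commonest low value of FPKM times length was taken as 1 fragment. This gave about 13.8 fragments per kb at 1 FPKM in the E10.5 and adult libraries and 26.7 in the E13.5 library. Whether that value stands for 1 fragment in each library was not tested. The study's text gives about the same number of reads for each sample, so a difference in depth is not established. With the value taken as 1 fragment, the lowest member value, Atp1b2 at E13.5, rests on about 151 fragments (approximate 95% Poisson interval 1.62 to 2.24 FPKM). Fxyd5 at E10.5 rests on about 120 fragments (7.10 to 10.2 FPKM). The intervals of Fxyd5 and Fxyd6 (8.12 to 10.6 FPKM) overlapped at E10.5, so their order at that stage was not distinguishable by counting error. Those of Atp1b2 at E13.5 and in the adult (1.88 to 2.84 FPKM) overlapped as well. All these intervals cover counting error only, and not the variation between animals.

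Changes of 1 or more on the log2(FPKM + 1) scale, which is 2-fold for high loci, were counted. From E10.5 to E13.5, 2 of the 6 genes were higher by this limit (Fxyd1, 1.90, and Fxyd6, 1.01) and 1 was lower (Atp1b2, -1.13). Over the 12569 mRNA loci, 5.89% were higher and 4.85% lower by this limit, with a median change of 0.17. The change of Atp1b2 exceeded that of only 3.55% of these loci. Fxyd6 lay at the limit, and it was within the limit with each of 4 other scalings (0.62 to 0.87).

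From E13.5 to the adult, no gene of the 6 was higher by this limit and 1 was lower (Atp1b3, -1.09), against 13.0% of mRNA loci higher, 32.1% lower and a median change of -0.50. Fxyd5 was 0.92 higher, more than 85.6% of mRNA loci, and Fxyd1 was 0.18 higher. The counts of this comparison depended on the scaling. With each of the 4 other scalings Atp1b3 was within the limit (-0.71 to -0.26) and Fxyd5 was past it (1.29 to 1.73).

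From E10.5 to the adult, 2 of the 6 genes were higher (Fxyd1 and Fxyd5) and 1 was lower (Atp1b3), while 14.8% of mRNA loci were higher and 27.3% lower. The median change of mRNA loci was -0.40, and relative to that median the changes were 2.48 for Fxyd1, 2.18 for Fxyd5, -0.54 for Atp1b1 and Atp1b2 and -0.67 for Atp1b3. At a limit of 2, Fxyd1 alone was past it, from E10.5 to the adult. Of mRNA loci, 5.59% were higher and 8.10% lower by that limit in this comparison, 0.851% and 0.247% from E10.5 to E13.5, and 4.41% and 9.88% from E13.5 to the adult. The split at the limit of 1 also depended on the scaling. Under median-of-ratios scaling the shares from E13.5 to the adult were 20.9% higher and 19.0% lower, and without globin and mitochondrial loci in the sum 25.7% and 14.7%. Over the scalings Fxyd1 ranged from 2.08 to 2.52, Fxyd5 from 1.78 to 2.20 and Atp1b3 from -1.07 to -0.65. These 3 comparisons share libraries and are not independent of each other.

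**Figure D2:**
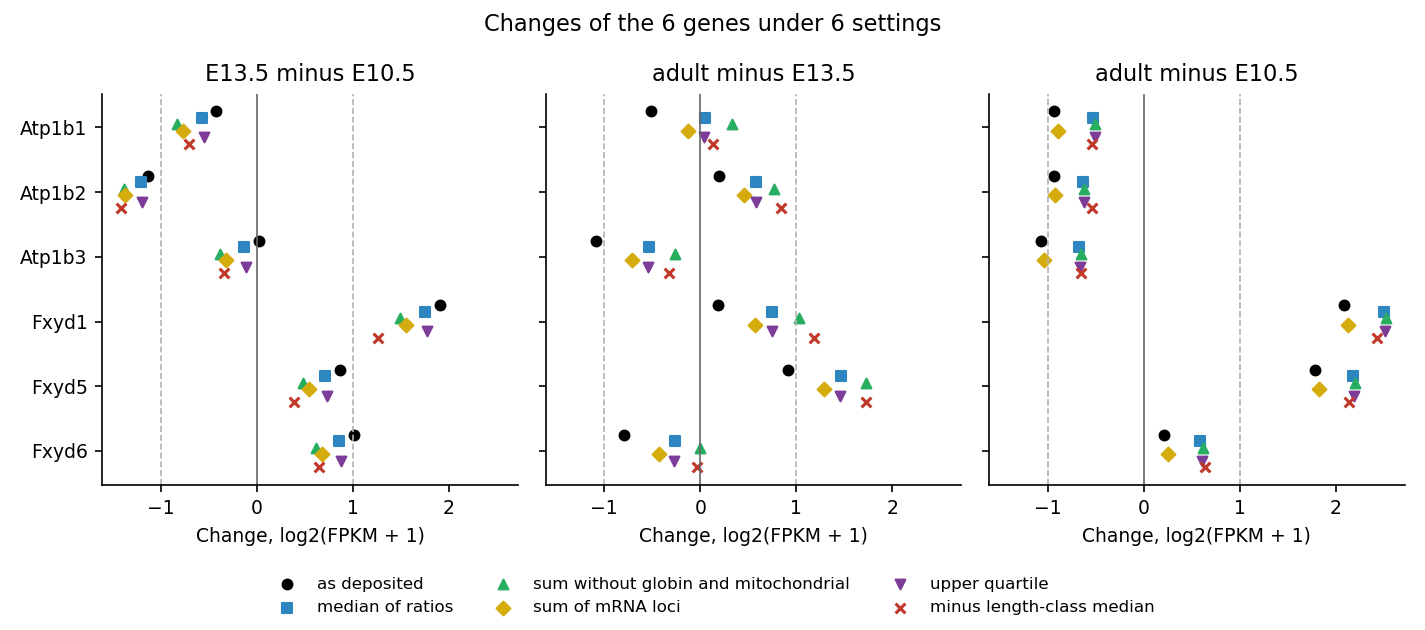
Change of each gene on the log2(FPKM + 1) scale in the 3 comparisons, as deposited, with 4 other scalings, and after subtracting the median of mRNA loci of like length. Dashed lines mark a change of 1 in either direction. Fxyd1 lies beyond the limit from E10.5 to E13.5 and from E10.5 to the adult in all 6 settings shown.

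The length of the transcripts moved with the changes that involve the E13.5 library. Among mRNA loci of a single gene whose median RefSeq length was at most 700 nt, the median change from E10.5 to E13.5 was 0.65, and 26.7% of these 315 loci were higher by the limit. Among 2365 loci above 5000 nt the median was -0.30 and 1.73% were higher. From E13.5 to the adult the order was inverted, with medians of -0.93 for 700 to 1000 nt and -0.07 above 5000 nt. Between E10.5 and the adult the medians of the 7 length classes lay between -0.42 and -0.35. The shares past the limit were less level in that comparison. Of loci of at most 700 nt, 20.3% were higher and 33.3% lower, against 11.7% and 25.5% above 5000 nt. For 1000 to 1500 nt, the class of Fxyd5, these shares were 18.5% and 29.4%. The FXYD genes are short, with median RefSeq lengths of 582.5 nt for Fxyd1, 1080 for Fxyd5 and 1792 for Fxyd6, against 1831 for Atp1b3, 2422 for Atp1b1 and 2959 for Atp1b2. The part of transcript length in the changes of these genes was not tested.

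Relative to the median of its length class, Fxyd1 was 1.26 higher from E10.5 to E13.5 and 1.18 higher from E13.5 to the adult. As deposited, these steps were 1.90 and 0.18, so the first step was the larger in both settings, but by much less relative to the class. Fxyd5 was 0.39 and then 1.73 above its class. Fxyd6, which was highest at E13.5 as deposited, was 0.65 above its class in the first step and at -0.03 relative to it in the second. Atp1b2 was at -1.41 relative to its class from E10.5 to E13.5 and at 0.84 from E13.5 to the adult. Over the whole interval, Fxyd1 was 2.43 and Fxyd5 2.14 above their classes, and Atp1b1, Atp1b2 and Atp1b3 were at -0.54, -0.54 and -0.65 relative to theirs.

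**Figure D3:**
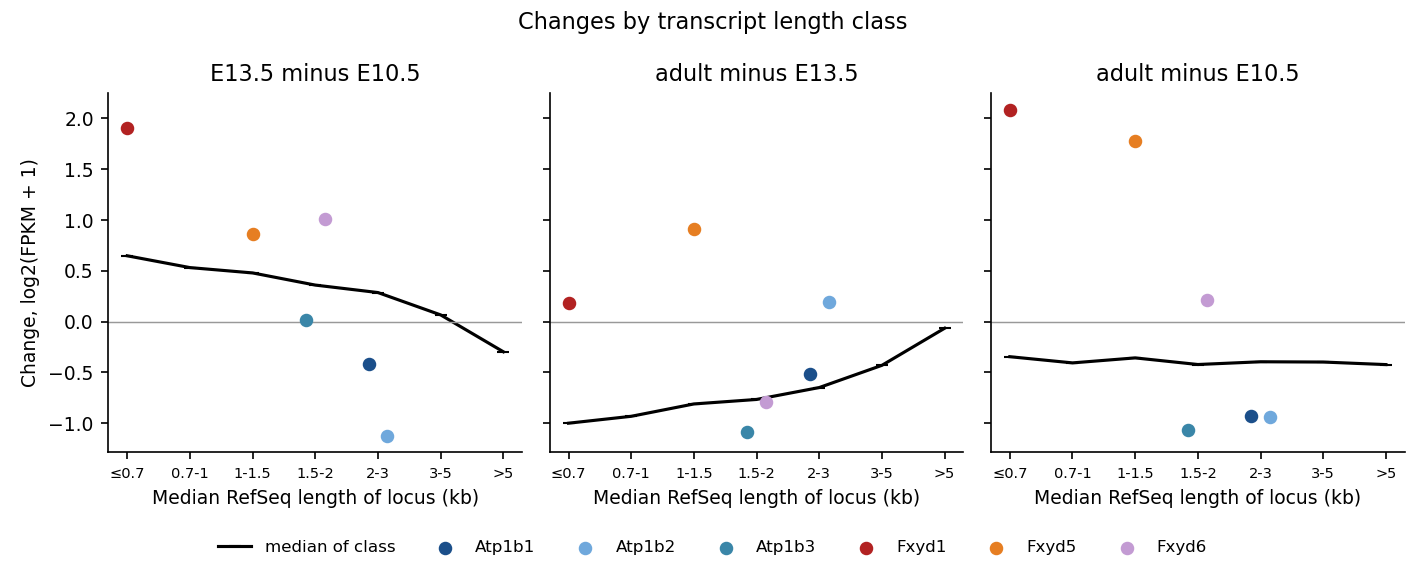
Change on the log2(FPKM + 1) scale against the class of median RefSeq length of the locus in kb, for the 3 comparisons. The line gives the median of mRNA loci of a single gene in each class and the points are the 6 genes. The line falls from 0.65 to -0.30 with length from E10.5 to E13.5 and is level from E10.5 to the adult.

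Since FPKM is scaled to length, the genes of each family were then compared within a library, where the scaling of the library drops out. Atp1b1 held 74.3%, 69.3% and 76.5% of the summed FPKM of the 3 beta subunit genes, Atp1b3 held 23.4%, 29.6% and 21.6%, and Atp1b2 held 2.31%, 1.03% and 1.98%. Fxyd1 held 84.7%, 91.2% and 90.8% of the sum of the 3 FXYD genes. The share of Fxyd6 in the adult was 2.34%, against 7.93% at E10.5. Whether the FPKM values used an effective length, which raises short transcripts such as those of Fxyd1, is not given in the sources used here, and the shares at E13.5 carry the length trend described above.

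The families were also set against each other. Fxyd1 was at 0.427, 2.02 and 3.61 times the beta sum, so that the adult library was the highest of the 3 in Fxyd1 relative to beta RNA.

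**Figure D4:**
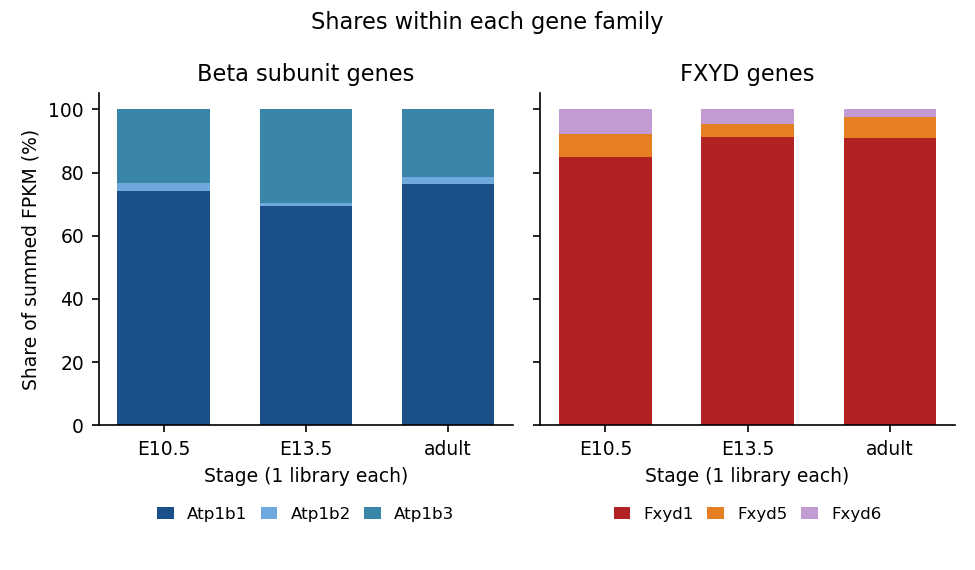
Share of the summed FPKM held by each gene within the beta subunit and FXYD genes, per library, in percent. Atp1b1 stays between 69.3% and 76.5% of the beta sum and Fxyd1 between 84.7% and 91.2% of the FXYD sum.

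Markers of the cell types of the ventricle were examined beside these values. In bulk tissue, fewer cells of a type and less RNA per cell cannot be told apart. The 6 cardiomyocyte markers with a locus of their own, of 7 listed, summed to 7034, 9422 and 14001 FPKM, and none was at 0. Of these, Tnnt2 and Pln had the order of stages of Fxyd1, whereas Ryr2 and Actn2 were lowest at E13.5, Myl3 was level after E13.5 and Actc1 was lowest in the adult. The 4 macrophage markers with their own locus, of 6 listed, summed to 37.1, 69.3 and 322 FPKM, and each of the 4 was higher at each later stage, as Fxyd5 was. The 5 fibroblast markers summed to 121, 254 and 413 FPKM, but the adult sum rested on Dcn (350.7 FPKM), and the other 4 were lower in the adult than at E13.5, with medians of the list of 18.3, 33.3 and 16.2 FPKM. The 5 neural and glial markers summed to 23.1, 38.8 and 10.3 FPKM, highest at E13.5 as Fxyd6 was. No marker of these 4 lists was at 0 in any library, although the glial gene Sox10 was at 0.253 FPKM or less throughout. The remaining lists summed to 244, 173 and 258 FPKM for 5 endothelial markers, 1311, 1226 and 187 for 4 smooth muscle markers, 6758, 16348 and 24.5 for 5 erythroid markers, and 61.9, 56.5 and 4.48 for 3 epicardial markers. Members of these lists did not all follow the sums. Myh11 of the smooth muscle list rose (0.112, 0.893 and 18.1 FPKM), while 3 of that list were lower by the limit from E13.5 to the adult. The erythroid sum rested on Hbb-y at E13.5 (15112 FPKM) and on Alas2 in the adult (19.6 FPKM), and Hbb-bh1 fell from 1314 at E10.5 to 366 FPKM at E13.5. The part of cell composition in the changes of the 6 genes was not tested.

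Among other genes of the pump and of sodium handling, 25 were examined, of which 24 had a locus of their own and 17 reached 1 FPKM. Between E10.5 and the adult, 1 of the 17 was higher by the limit and 4 lower, with a median change of -0.14 against -0.40 for all mRNA loci, of which 14.8% were higher and 27.3% lower. Both counts are thus below the shares over all loci. The higher gene was Slc12a7 (1.44), a potassium chloride cotransporter that carries no sodium although it stood in the list of sodium-coupled transporters. The lower genes were Ppp1r1a (-3.80), Atp2b4 (-1.59), Slc8a1 (-1.54) and Ppp1ca (-1.08). Ppp1ca was the only 1 of these 5 that was within the limit in a scaling or length setting. Slc8a1, the cardiac sodium-calcium exchanger, was at 231, 102 and 78.7 FPKM. Atp2b4, a plasma membrane calcium pump gene, was at 20.4, 9.46 and 6.11 FPKM.

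Among the genes that act on phospholemman, Prkaca, the main catalytic subunit of protein kinase A, was at 54.2, 80.2 and 77.6 FPKM, and Prkca, protein kinase C alpha, at 2.64, 4.60 and 3.93. Neither passed the limit in any comparison. Ppp1r1a encodes inhibitor-1 of protein phosphatase 1, the enzyme that removes phosphate from phospholemman. It was at 19.9 and 25.4 FPKM in the embryonic libraries and at 0.498 in the adult. The phosphatase genes Ppp1ca and Ppp1cb were at 131 and 171 FPKM in the adult. From E10.5 to E13.5, 0 of the 17 genes were higher and 2 lower, namely Slc8a1 (-1.18) and Atp2b4 (-1.03), against 5.89% and 4.85% of mRNA loci. Both were within the limit after subtraction of the length class median. In the second step 2 genes were higher, Slc12a7 (1.80) and Slc4a4 (1.21), a sodium bicarbonate cotransporter gene, and 2 were lower, Ppp1r1a (-4.14) and Ppp1ca (-1.58), against 13.0% and 32.1% of mRNA loci. Ppp1ca was within the limit in this step with another scaling (-0.74) and after subtraction of the length class median (-0.77).

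The remaining genes of both families were near or below 1 FPKM. Atp1b4 did not exceed 0.0746 FPKM. Fxyd2, the gamma subunit gene of kidney, was at 0.719, 1.99 and 0.990 FPKM. Fxyd7 was listed at 0 at E10.5 and was at 0.689 and 0.342 FPKM, Fxyd3 was listed at 0 and was at 0.183 and 0.125 FPKM, and Fxyd4, at 0.147 FPKM in the adult library, was listed at 0 in the other two.

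**Figure D5:**
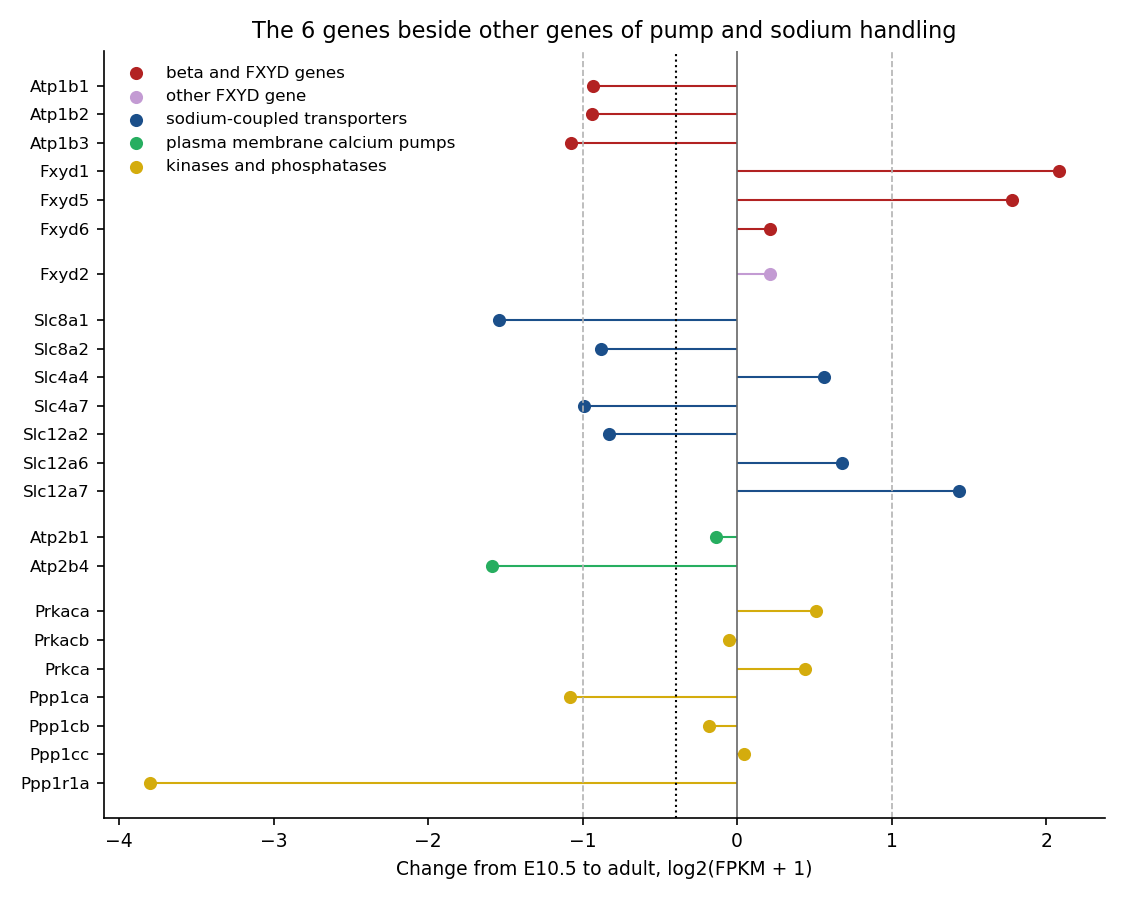
Change from E10.5 to the adult on the log2(FPKM + 1) scale for the 6 genes and 17 other genes of pump and sodium handling at 1 FPKM or more. Dashed lines mark a change of 1 and the dotted line the median of all mRNA loci, -0.40. Fxyd1 (2.08) lies farthest right and Ppp1r1a (-3.80) farthest left.

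The position of the genes was compared with their levels. Fxyd1, Fxyd7 and Fxyd5 lie in a row on the minus strand of chromosome 7, with 223 bp between the loci of Fxyd1 and Fxyd7 and 192 bp between those of Fxyd7 and Fxyd5. Despite this spacing Fxyd7 was at 0.342 FPKM in the adult, between neighbours at 424 and 31.8. On chromosome 9 the locus of Fxyd2 begins 3508 bp beyond that of Fxyd6 on the same strand, at 0.990 against 10.9 FPKM in the adult. All 42 introns of the RefSeq transcripts of the 6 genes were also introns of GENCODE M21 on GRCm38, so the coordinates are those of that assembly.

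The assembly differed in detail between the genes. Atp1b1 had a single transcript of 6 exons and 2422 nt, which matched RefSeq. Fxyd1 had 5 transcripts of 507 to 623 nt, 4 of them matched, with start sites 803 bp apart, and Fxyd5 had 4 transcripts, 2 of them matched, with start sites 504 bp apart. Atp1b3 had 1 matched transcript of 1831 nt and 4 unmatched ones of up to 12770 nt, which ended 1988 bp beyond the RefSeq end. The values are per locus, so the use of these starts and ends could not be read, and the FPKM of Atp1b3 depends on how fragments were shared among transcripts of such unequal length.

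Finally, the mRNA loci whose successive changes from E10.5 to E13.5 and from E13.5 to the adult lay nearest to those of each gene were listed, by the larger of the 2 absolute differences. For Fxyd1 these were Gas6 (7.61, 29.2 and 32.4 FPKM) at a distance of 0.09 and G0s2 (9.41, 33.7 and 40.3 FPKM) at 0.17. Only 3 of 12071 loci lay within 0.25 of Fxyd1, against 97 for Fxyd5, 111 for Atp1b2, 178 for Fxyd6, 403 for Atp1b1 and 642 for Atp1b3. The nearest loci were Apoc2 and Slc35f5 for Fxyd5, Tnfaip6 and Shfm1 for Fxyd6, Gpr39 and Myc for Atp1b1, Arhgap32 and Csnk1g1 for Atp1b2, and Gpr173 and Snai1 for Atp1b3. Some of these are low loci, where the scale compresses changes, so a small distance there is not a like fold. Snai1 was at 1.44, 1.48 and 0.167 FPKM and Apoc2 at 0.336, 1.45 and 3.65. Others were higher, such as Slc35f5 at 14.1, 26.8 and 52.0 FPKM and Shfm1 at 313, 620 and 361. With 3 libraries a pattern consists of 2 numbers, so such a likeness is a description of these libraries.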

How the data were processed

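Total RNA of ventricle at E10.5, E13.5 and 8 weeks was sequenced as 1 stranded paired-end library per stage. The submitters' processing notes name TopHat, Bowtie, Cufflinks and mm10 for mapping and assembly. The study's text gives TopHat2 as the mapper and states that Cufflinks was run both with UCSC annotation and without it. Full versions, further options and the use of strand in quantification are not given in the sources used here. The authors deposited FPKM values per merged locus, of which mRNA loci hold 56.7%, 53.7% and 75.4% in the E10.5, E13.5 and adult libraries. Exon positions, in another unit (bp), were also deposited. Loci with a match to a RefSeq mRNA were called mRNA loci.

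Changes were differences of log2(FPKM + 1), a scale that compresses low loci, and were counted at 1 or more. No test was run, since each stage has 1 library. The members and lists were chosen with earlier results of these data known. Named genes were the 6 members, the genes of the pathway list past the limit and the 2 loci nearest to each member. Some genes of the pathway and marker lists are not reported here, and sums and counts are without them. In addition, Sox10, Prkaca, Prkca, Ppp1cb, Atp1b4, Fxyd2, Fxyd3, Fxyd4 and Fxyd7 were named after their values were seen. Approximate fragments are the FPKM times the shortest matched length, divided by the commonest low step, which was taken as 1 fragment. Alternatives changed the pseudocount, the scaling (median-of-ratios factors, the FPKM sum without globin and mitochondrial loci, the sum of mRNA loci, and their upper quartile), the limit and the loci of the background. Subtraction of the median of the length class was added after seeing the data. The calculations were tested on simulated data. Python 3.11.15, numpy 2.4.6, pandas 2.3.3 and scipy 1.17.1 were used, and promoter sequences are from RefSeq.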

Additional observations from a re-analysis of the deposited data

How the results depend on the processing

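No paired analysis was possible because only 1 library represents each stage, and for the same reason no library could be left out. Of 108 recalculated changes of the 6 genes, 96 stayed within 1.5-fold of the deposited value and 12 moved further. In no recalculation did a change past the limit turn its direction. Of 42 recalculated counts of genes past the limit, 25 moved.

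From E13.5 to the adult, rescaling to the FPKM sum without globin and mitochondrial loci gave 0.33 for Atp1b1, -0.26 for Atp1b3, 1.03 for Fxyd1, 1.73 for Fxyd5 and -0.0013 for Fxyd6. Subtracting the median of the length class gave 0.14 for Atp1b1, 0.84 for Atp1b2, -0.32 for Atp1b3, 1.18 for Fxyd1, 1.73 for Fxyd5 and -0.029 for Fxyd6. That subtraction also gave 1.26 for Fxyd1 from E10.5 to E13.5. The direction of Atp1b1 from E13.5 to the adult and of Atp1b3 from E10.5 to E13.5 thus depended on the scaling, the latter ranging from -0.39 to 0.02.

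From E10.5 to E13.5 the number of genes higher was 1 with each of the 4 other scalings and with the length class. From E13.5 to the adult it was 1 with median-of-ratios, mRNA-sum and upper-quartile scaling and 2 without globin and mitochondrial loci or with the length class, while the number lower was 0 in all 5. From E10.5 to the adult the number lower was 2 with a pseudocount of 0.1, namely Atp1b2 (-1.17) and Atp1b3 (-1.10). It was 0 with median-of-ratios and upper-quartile scaling, without globin and mitochondrial loci and with the length class. At a limit of 2 the numbers higher and lower were 0 and 0, 0 and 0, and 1 and 0 in the 3 comparisons in that order, the 1 being Fxyd1. The causes were not tested.

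Without the filter on low values, the share of mRNA loci higher and lower by the limit was 3.68% and 3.03% from E10.5 to E13.5, 8.14% and 20.0% from E13.5 to the adult, and 9.23% and 17.1% from E10.5 to the adult. The split of mRNA loci from E10.5 to the adult was 14.8% higher and 27.3% lower as deposited and 20.0% and 18.4% with median-of-ratios scaling. By the approximate fragment numbers, depth limits Atp1b2, Fxyd5 and Fxyd6 most, with smallest values of about 94.8, 120 and 229.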

Other observations

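The start of Atp1b1 is faced by an unnamed locus of 2 exons on the opposite strand (chromosome 1, 164458611 to 164462704), with 256 bp between the starts. It was at 0.274, 0.701 and 0.329 FPKM in the E10.5, E13.5 and adult libraries, below 1 FPKM throughout, while Atp1b1 was at 172, 128 and 89.7. At its other end, the locus of Atp1b1 overlaps that of Nme7 on the opposite strand by 30 bp. Nme7 was at 12.2, 15.1 and 3.35 FPKM.

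Beyond the end of Atp1b3, 4 unspliced unnamed loci lay within 3677 bp. The one on the same strand (chromosome 9, 96328997 to 96330217), 469 bp away, was at 1.29, 0.422 and 0.325 FPKM. The other 3, on the opposite strand, were highest in the adult library, at 1.81, 0.725 and 0.965 FPKM, against at most 0.272 in the embryonic libraries. Besides these, 3 unspliced unnamed loci faced Atp1b1 between 1453 and 5084 bp from its start and stayed at or below 0.774 FPKM.

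At the other 5 genes, no start on the opposite strand faced the gene's start within 3000 bp in the deposited annotation.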
